A study of Mus musculus with 10 samples.

Results

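The genes described here are 9 components and regulators of the complement system, namely C1qa, C1qb, C1qc, C3, C4b, Cfb, Serping1, C3ar1 and C5ar1. They were chosen by gene symbol, each through the probe set that the array's annotation gives to that symbol alone. Of the 9, 8 had such a probe set, 1 each, out of 22180 genes tested. C3 had none and was not analysed here.

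Complement is a cascade of plasma proteins that tags microbes, dead cells and immune complexes. C1q, built from the A, B and C chains, starts the classical pathway, whose proteases C1r and C1s cleave C4 and C2 into an enzyme that splits C3. Factor B forms the matching enzyme of the alternative pathway. The fragments C3a and C5a signal through their receptors on leukocytes, and the C1 inhibitor holds C1r and C1s in check. Macrophages are the main source of C1q, and fibroblasts, vascular cells and the liver make many other components. In cultured fibroblasts, IL-17 is known to raise the output of C3 and factor B, which makes Cfb a gene of interest when IL-17 is absent.

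RNA of whole aortas from 10 male mice was measured on Affymetrix Mouse Gene 2.0 ST arrays. In 5 ApoE/IL-17 double knockout mice, called double knockout from here on, both the cytokine IL-17 and apolipoprotein E were missing, and 5 ApoE knockout mice lacked apolipoprotein E alone. All were on a C57BL/6 background and ate a high fat diet for 3 weeks, beginning at 8 weeks of age, until aortas were taken at 11 weeks. Both groups therefore share the loss of ApoE, which makes mice hyperlipidemic, and neither group is wild type. The double knockout line came from crossing IL-17-/- mice into ApoE-/- mice. Values are on a log2 scale, and each difference is the double knockout mean less the ApoE knockout mean. Precision is limited by the number of arrays.

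The array median over all probe sets ran from 5.95 to 6.03 in the double knockout and from 5.76 to 5.80 in the ApoE knockout. The lower quartile differed more (4.72 to 4.83 against 4.49 to 4.53) than the upper (7.59 to 7.66 against 7.55 to 7.62), so dim probe sets read higher in the double knockout. Olfactory, vomeronasal and taste receptor genes, read here as mostly background although some may be used in the aorta, had a median change of 0.29. The 95th percentile of their mean levels, 5.80, is called the receptor gene level. Apoe itself, which neither group carries intact, read 6.83 to 7.26 in the double knockout and 6.07 to 6.47 in the ApoE knockout. Il17a lay at 4.48 to 4.94 in the double knockout and 4.20 to 4.54 in the ApoE knockout, below the receptor gene level in all arrays. The place of these probes relative to the deletions is unknown here, so neither gene checks the labels. The 2 groups carry different protocol texts, the ApoE knockout text speaking of caspase-1 deficient mice and not of IL-17. With no scan date or batch known, separate handling of the groups and genotype cannot be told apart.

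None of the 8 measured members passed the threshold, an adjusted p of 0.05 over all genes in limma, in a comparison where 30.3% of all 22180 genes did (22.8% higher and 7.53% lower in the double knockout). At an unadjusted p under 0.05, 1 of the 8 passed, Serping1, against 43% of all genes. The groups overlapped for all 8 members, while for 20.4% of all genes they did not. The median change was -0.15 over the members and 0.10 over all genes. The C1q chains read about 1.24-fold to 1.27-fold lower, C4b and Cfb 1.12-fold and 1.10-fold lower, and Serping1, C3ar1 and C5ar1 1.12-fold, 1.11-fold and 1.19-fold higher. None of these differences passed. All 8 had group means above the receptor gene level.

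**Figure D1:**
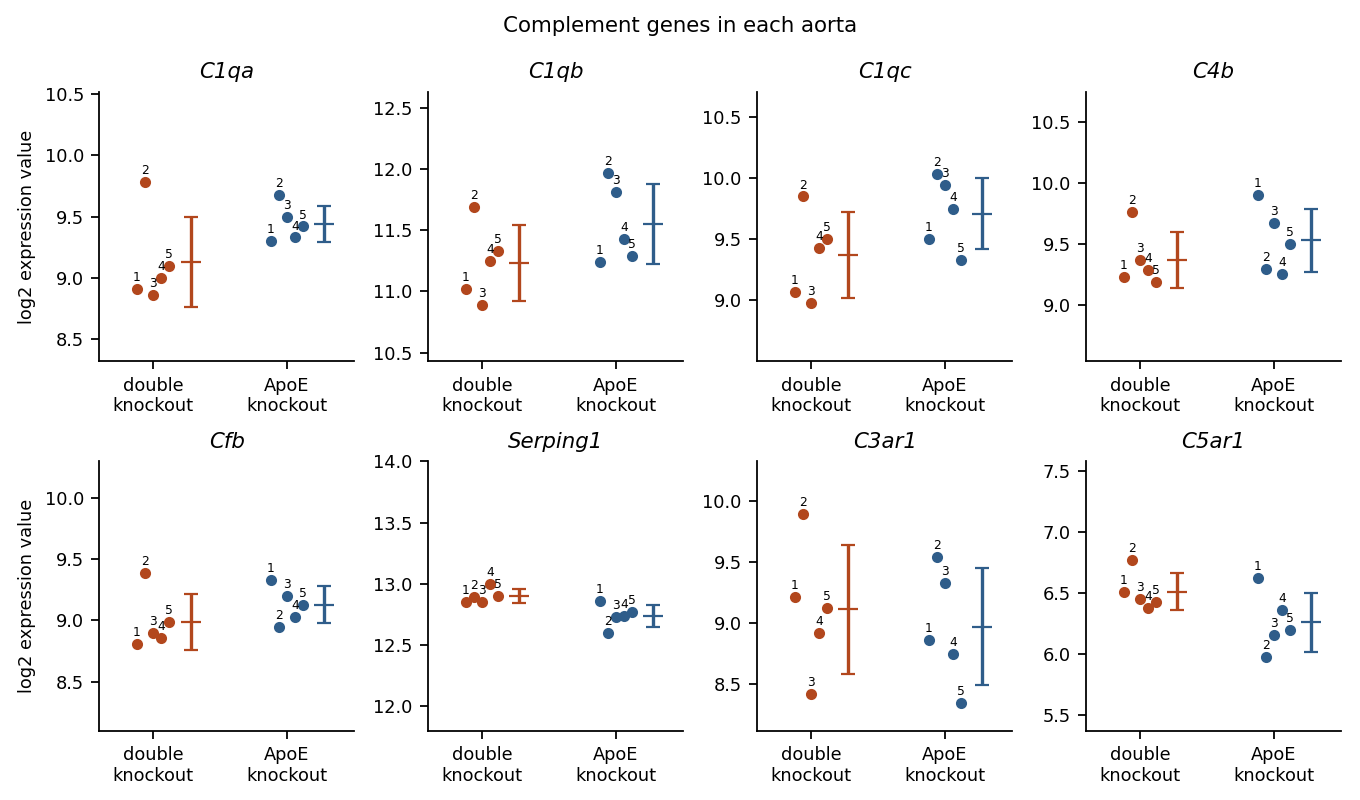
Log2 expression value of the 8 measured complement genes in each aorta, double knockout on the left and ApoE knockout on the right of each panel. Points are single aortas with their replicate numbers, and bars give the mean and SD (n = 5 per group). All panels span the same log2 range, and double knockout replicate 2 is the highest of its group in each gene but Serping1.

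The recognition molecule was examined first. C1qa, which encodes the A chain of C1q, had values of 8.91, 9.78, 8.86, 9.0 and 9.10 in the double knockout aortas, against 9.30, 9.68, 9.50, 9.33 and 9.42 in the ApoE knockout aortas (replicates 1 to 5). Double knockout replicate 2 stood above every ApoE knockout aorta, and the other 4 stood below all of them. The difference was -0.31 (SE 0.16, 95% confidence interval -0.66 to 0.04, limma adjusted p = 0.15, n = 5 per group). Without double knockout replicate 2 it was -0.48, or 1.39-fold lower (SE 0.09, limma adjusted p = 0.0051), and passed, as did 31.7% of all genes. C1qa was thus the member whose call turned on that aorta.

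C1qb, the B chain, had 11.02, 11.69, 10.89, 11.25 and 11.33 in the double knockout, against 11.24, 11.97, 11.81, 11.43 and 11.29 in the ApoE knockout. Its groups overlapped broadly, and the difference of -0.32 (SE 0.18, interval -0.70 to 0.07, limma adjusted p = 0.19) was about the size of the SD within either group (0.31 and 0.33). C1qc, the C chain, had 9.07, 9.85, 8.98, 9.43 and 9.50, against 9.50, 10.03, 9.94, 9.75 and 9.33 in the ApoE knockout. Its difference was -0.35 (SE 0.18, interval -0.74 to 0.05, limma adjusted p = 0.16). Without double knockout replicate 2 the differences were -0.43 for C1qb and -0.47 for C1qc (limma adjusted p = 0.069 and 0.051). When each array was centred on its median over all probe sets, which moves the median change of all genes to -0.11, the 3 chains passed with -0.52, -0.52 and -0.55 for C1qa, C1qb and C1qc (adjusted p = 0.034, 0.045 and 0.038). Under that centring 3 of the 8 members passed, all lower, where 33% of all genes passed and 25.4% were lower. Centred over the genes tested, or after quantile normalization (where 20.1% of all genes passed), none of the chains passed.

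The chains varied together from aorta to aorta. In the double knockout all 3 ranked the replicates 2, 5, 4, 1 and 3 from high to low, and in the ApoE knockout all 3 were highest in replicate 2, with replicate 3 next. After each value was centred on its own group's mean, C1qb and C1qc differed by a root mean square of 0.09 over the 10 arrays, where C1qb itself varied by 0.29. C1qc ranked 10 among the 5570 genes compared for likeness to C1qb, and C1qa ranked 188 at 0.16. The 5 non-member genes most like C1qb were Arhgap11a (0.06), Lyz2, Pole2, Cxcl16 and Lgmn (each 0.08). Lyz2 encodes the lysozyme of macrophages, Cxcl16 a chemokine that also binds oxidized lipoprotein, Lgmn a lysosomal protease and Pole2 a DNA polymerase subunit. Of these, Arhgap11a was lower in the double knockout (-0.46, limma adjusted p = 0.044), and the other 4 did not pass.

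Macrophage markers are set beside the C1q chains. Of 12 markers, Cd163, Folr2 and F13a1 were lower in the double knockout, none was higher and 9 did not pass. That is 25% called, all lower, where 30.3% of all genes were called and 7.53% were lower. The median change was -0.26, and Cd68 (0.37) and Mertk (0.16), which did not pass, had differences above 0. Their mean level ranged from 9.24 to 9.96 in the double knockout and from 9.58 to 9.95 in the ApoE knockout, and none lay below the receptor gene level. In the double knockout the marker mean, like the C1q chains, was highest in replicate 2 (9.96) and lowest in replicate 3 (9.24). In the ApoE knockout it was highest in replicates 3 and 2 (9.95 and 9.85). Neutrophil, fibroblast, endothelial, mesothelial and platelet marker means were also highest in double knockout replicate 2. The endothelial mean (9.82 to 10.25 in the double knockout and 10.11 to 10.37 in the ApoE knockout) ranked the aortas 2, 5, 4, 3, 1 in the double knockout and 2, 3, 5, 4, 1 in the ApoE knockout. The ApoE knockout order is that of C1qa. The part of these markers in the C1q values was not tested. In whole tissue, fewer cells of a type and less RNA per cell cannot be told apart.

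**Figure D2:**
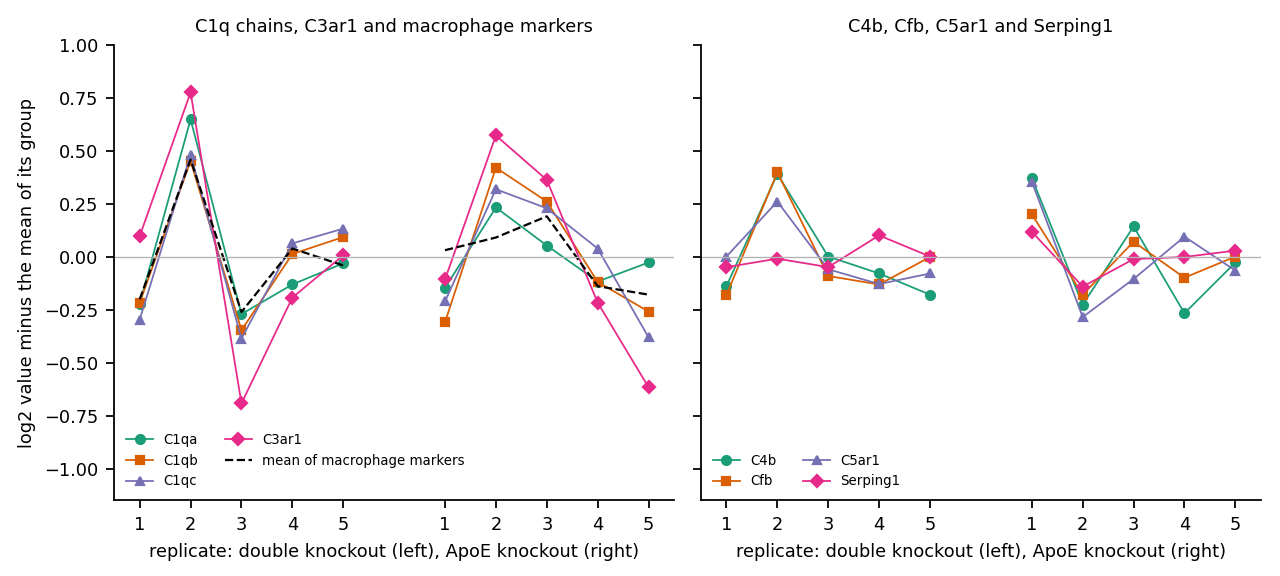
Each gene's log2 value minus the mean of its own group, by replicate, double knockout on the left and ApoE knockout on the right of each panel. The left panel shows the C1q chains, C3ar1 and the mean of the 12 macrophage markers (dashed), which share a peak in double knockout replicate 2. The right panel shows C4b, Cfb, C5ar1 and Serping1, which within the ApoE knockout are each highest in replicate 1. C4b, Cfb and C5ar1 are also highest in double knockout replicate 2.

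Because C1qb and C1qc varied together, their promoter windows are shown, with that of C3ar1 (RefSeq, GRCm38.p6, 250 bases before to 50 after the gene's start, gene strand, 5′ to 3′). C3ar1 was, like them, highest in replicate 2 of each group, but was less alike over all arrays, at rank 1081 of 5570 for C1qb (0.24). The windows lie at chr4:136886151-136886450, chr4:136892865-136893164 and chr6:122856108-122856407, all on the minus strand. Capitals mark matches, on either strand, to GAGGAA, the core bound by the macrophage ETS factor PU.1, or to TGACTCA, the site of AP-1 factors. They also mark TATAAA, the letters of a TATA box, wherever it lies in the window.
C1qb: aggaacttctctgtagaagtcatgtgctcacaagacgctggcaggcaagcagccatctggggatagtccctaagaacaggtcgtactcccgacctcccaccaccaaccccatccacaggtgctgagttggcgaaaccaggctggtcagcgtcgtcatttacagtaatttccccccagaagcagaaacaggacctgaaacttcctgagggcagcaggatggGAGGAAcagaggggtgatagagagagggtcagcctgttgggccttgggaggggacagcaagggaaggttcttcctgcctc
C1qc: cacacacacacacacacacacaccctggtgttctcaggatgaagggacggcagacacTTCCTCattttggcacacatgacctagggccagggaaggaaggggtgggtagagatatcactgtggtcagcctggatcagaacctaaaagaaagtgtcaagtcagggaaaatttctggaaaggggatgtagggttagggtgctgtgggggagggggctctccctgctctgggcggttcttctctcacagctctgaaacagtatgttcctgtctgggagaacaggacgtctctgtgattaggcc
C3ar1: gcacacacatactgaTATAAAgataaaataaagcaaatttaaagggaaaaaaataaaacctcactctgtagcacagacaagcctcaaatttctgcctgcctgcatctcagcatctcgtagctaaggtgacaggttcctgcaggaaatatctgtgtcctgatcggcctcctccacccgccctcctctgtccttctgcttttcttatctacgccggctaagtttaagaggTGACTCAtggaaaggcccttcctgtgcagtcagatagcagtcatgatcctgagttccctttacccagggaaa
C1qb holds GAGGAA starting at -30 relative to the gene's start, and C1qc holds its reverse complement at -193. C3ar1 holds no GAGGAA, but TGACTCA at -22 and TATAAA at -235. Among 32851 promoter windows of this length, 28.3% hold GAGGAA, 5.2% TGACTCA and 13.6% TATAAA. Of the 5 windows found for members, 2 hold GAGGAA, 1 TGACTCA and 2 TATAAA. The marked matches do not overlap, and they describe the letters only.

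C4b encodes complement C4, the substrate of C1s. Its values were 9.23, 9.76, 9.37, 9.29 and 9.19 in the double knockout and 9.90, 9.30, 9.67, 9.26 and 9.50 in the ApoE knockout. The ranges overlapped almost fully, and the difference was -0.16 (SE 0.14, interval -0.47 to 0.15, limma adjusted p = 0.40). C4a, its close relative and neighbor on chromosome 17, lay below the receptor gene level (4.14 ± 0.21 against 3.99 ± 0.32, SD, n = 5). These related genes may share signal, which would leave their separate values uncertain.

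Cfb, which encodes factor B, had 8.81, 9.39, 8.90, 8.86 and 8.99 in the double knockout and 9.33, 8.95, 9.20, 9.03 and 9.13 in the ApoE knockout. As for C1qa, double knockout replicate 2 stood above every ApoE knockout aorta, and 3 of the other 4 stood below all of them. The difference was -0.14 (SE 0.12, limma adjusted p = 0.38), with an interval of 0.761 to 1.08 as a fold of double knockout over ApoE knockout. Without double knockout replicate 2 it was -0.24 (SE 0.09, limma adjusted p = 0.062) and still did not pass. C2, the classical pathway counterpart next to Cfb on chromosome 17, had means of 8.01 ± 0.16 and 8.00 ± 0.12 (double knockout and ApoE knockout, SD, n = 5) and a difference of 0.01 (interval -0.19 to 0.21).

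With arrays centred on the median of all probe sets, C4b and Cfb had differences of -0.36 and -0.34 (limma adjusted p = 0.073 and 0.052). C4b and Cfb followed each other within groups. Both were highest in replicate 2 of the double knockout, and in the ApoE knockout both ranked replicates 1, 3 and 5 above 4 and 2. Cfb ranked 12 of 8446 genes in likeness to C4b, with a root mean square difference of 0.11 where C4b itself varied by 0.22. C1qb, by contrast, ranked 7086 for C4b (0.34). The 5 non-member genes most like C4b were Adamts16 and Clec10a (0.08), Sfrp4 and Pts (0.09) and Pcdh18 (0.10). Adamts16 is a matrix protease, Clec10a a galactose lectin of macrophages and dendritic cells, and Sfrp4 a secreted Wnt antagonist. Of these, Pts alone passed (-0.56, limma adjusted p = 0.010).

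ApoE knockout replicate 1, the highest of its group in C4b, Cfb, C5ar1 and Serping1, also had the highest white adipocyte marker mean (10.39, against 8.75 to 9.77 in the other ApoE knockout aortas and 8.40 to 9.61 in the double knockout). Of the 7 white adipocyte markers, limma called 0, against 30.3% of all genes. An unadjusted p under 0.05 was found for 1, against 43% of all genes. In the double knockout the white adipocyte mean was highest in replicate 3, while C4b and Cfb were highest in replicate 2. ApoE knockout replicate 1 was also highest of all 10 in the marker means of brown adipocytes (10.54), B cells (7.44), mast cells (7.46), platelets (10.02) and dendritic cells (6.95). Their part in the C4b and Cfb values was not tested.

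Serping1 encodes the C1 inhibitor. Its values were 12.85, 12.89, 12.85, 13 and 12.90 in the double knockout, against 12.86, 12.60, 12.73, 12.74 and 12.77 in the ApoE knockout. It was the least variable member, and ApoE knockout replicate 1 alone reached into the double knockout range. The difference of 0.16 (SE 0.07, interval 0.01 to 0.31) did not pass over all genes (limma adjusted p = 0.092). It was 0.13 to 0.19 with 1 array left out and -0.04 when arrays were centred on the median of all probe sets. Genes with the most similar pattern were Nhs (0.03), Sbf2, Ccdc47, Fgfr1 and Slain2 (0.04 each), among 13439 compared, where Serping1 itself varied by 0.07. Nhs, Sbf2, Ccdc47 and Fgfr1 were higher in the double knockout (0.20 to 0.26), where 22.8% of all genes were higher. Slain2 (0.17, limma adjusted p = 0.065) did not pass.

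C3ar1 encodes the receptor for C3a on myeloid cells. It had 9.21, 9.89, 8.42, 8.92 and 9.12 in the double knockout and 8.86, 9.54, 9.33, 8.75 and 8.35 in the ApoE knockout. It was the most variable member (SD 0.53 and 0.48), and its difference of 0.15 (SE 0.27, limma adjusted p = 0.70) had an interval of -0.45 to 0.74, wide enough to hold changes of either sign. Like the C1q chains it was highest in replicate 2 of each group. Set against C1qb in the same aorta, C3ar1 lay at -2.47 to -1.80 in the double knockout and -2.94 to -2.38 in the ApoE knockout on the log2 scale, with double knockout replicate 3 inside the ApoE knockout range. This contrast was chosen after its values were seen and was not tested.

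C5ar1, the C5a receptor of neutrophils and macrophages, had 6.51, 6.77, 6.45, 6.38 and 6.43 in the double knockout and 6.62, 5.98, 6.16, 6.36 and 6.20 in the ApoE knockout. ApoE knockout replicate 1 stood above 4 of the 5 double knockout aortas, and the other 4 stood below all of them. The difference was 0.25 (SE 0.12, interval -0.02 to 0.51, limma adjusted p = 0.14). Without ApoE knockout replicate 1 it was 0.34 (SE 0.10, limma adjusted p = 0.035) and passed, as did 28% of all genes. After quantile normalization it was 0.08, and the level of this gene is the nearest of the members to the receptor gene level. Neutrophil markers mostly differed the other way, with 5 of 10 lower and none higher (median -1.01), where 7.53% of all genes were lower. Lcn2 alone of these markers had a difference above 0 (0.30), and it did not pass. The mean level of the neutrophil markers was 6.03 to 6.42 in the double knockout against 6.58 to 7.96 in the ApoE knockout. Among them Camp lay below the receptor gene level. Their part in the C5ar1 values was not tested.

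**Figure D3:**
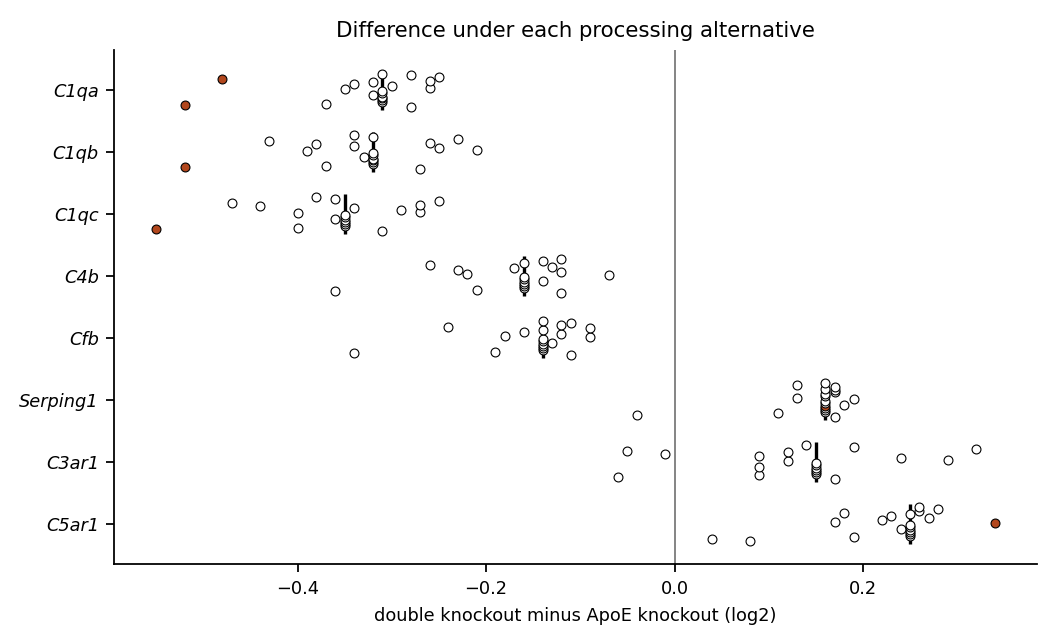
Difference between double knockout and ApoE knockout aortas (log2) for each measured member under each processing alternative. The bar is the value as reported, circles are alternatives, and filled circles passed an adjusted p of 0.05. The C1q chains, C4b and Cfb stay below 0 and C5ar1 above it under the alternatives run, while C3ar1 and Serping1 cross it.

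The wider pathway was read from a list of 54 complement genes, of which 50 were measured. As deposited, 10 passed upward and 1 downward in the double knockout, or 22% against 30.3% of all genes, with a median change of 0.09 against 0.10. The split turned with the scaling. After quantile normalization 3 were higher and 7 lower (median -0.06), where 20.1% of all genes passed (median -0.02). With arrays centred on the median of all probe sets 3 were higher and 11 lower. Under that centring 33% of all genes passed and 25.4% were lower. Of the 11 called genes, 7 had both group means below the receptor gene level, so background may limit their values. These 7 were Colec10, C1s2, Hc, C8a, C4bp, Cpn1 and Csmd1, and they were higher by 0.28 to 0.71. Among the 32 genes with at least 1 group mean at or above that level, 4 passed (12.5%, against 26.7% of all such genes).

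Those 4 were regulators and a classical pathway protease. Cd59a, which encodes the membrane protein that blocks the membrane attack complex, had 10.53, 10.62, 10.60, 10.51 and 10.65 in the double knockout against 11.17, 10.72, 10.86, 10.94 and 10.79 in the ApoE knockout. The groups did not overlap, and Cd59a was 1.24-fold lower (log2 change -0.32, SE 0.09, limma adjusted p = 0.019). It passed with each array left out in turn (limma adjusted p = 0.016 to 0.045). Cd59b, its paralog, had a difference of 0.16 (SE 0.12) and did not pass, and the pair may share signal. Cd55, another membrane regulator, had -0.33 (SE 0.12, limma adjusted p = 0.058).

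Clu, which encodes clusterin, a chaperone in plasma that binds the terminal complex, had 10.99, 11.07, 10.96, 11.13 and 11.09 in the double knockout against 10.64, 10.76, 10.73, 10.90 and 10.95 in the ApoE knockout. It was 1.19-fold higher without overlap (log2 change 0.25, SE 0.08, limma adjusted p = 0.029). The call was lost without ApoE knockout replicate 1, 2 or 3 or double knockout replicate 4 or 5 (limma adjusted p of 0.056 to 0.068), and when arrays were centred on the median of all probe sets (0.05) or of the genes tested (0.20). Susd4, a membrane protein reported to inhibit complement, was 1.43-fold higher (6.12 ± 0.30 against 5.60 ± 0.10, SD, n = 5, limma adjusted p = 0.013). Its ApoE knockout mean lay below the receptor gene level, and it did not pass after quantile normalization (0.32, adjusted p = 0.12) or with arrays centred on the median of all probe sets (0.31, adjusted p = 0.073). C1ra, the C1r protease, was 1.29-fold higher with overlapping groups (7.70 ± 0.17 against 7.34 ± 0.24, SD, n = 5, limma adjusted p = 0.043). It did not pass without ApoE knockout replicate 2, 3 or 4 or double knockout replicate 1, 3, 4 or 5, or after quantile normalization (limma adjusted p up to 0.10). Centred on the median of all probe sets it was 0.16 (adjusted p = 0.33), and over the genes tested 0.31 (adjusted p = 0.074). C1ra and its paralog C1rb may share signal.

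**Figure D4:**
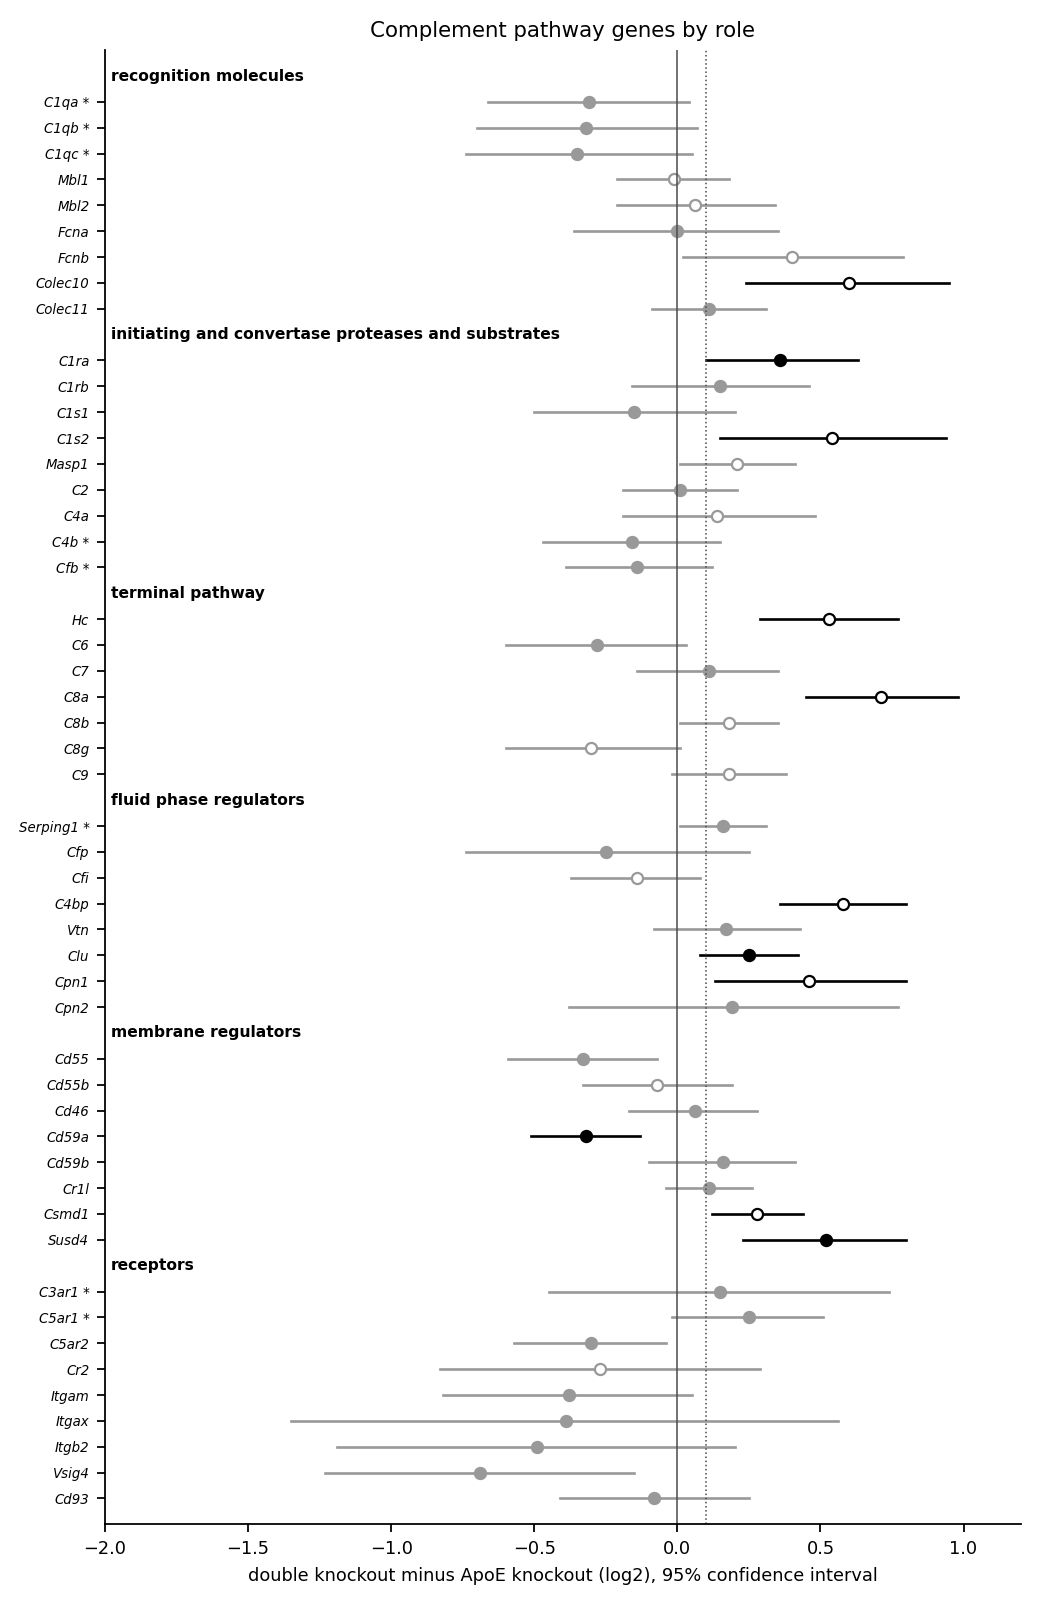
Difference between double knockout and ApoE knockout aortas (log2, with 95% confidence interval) for the 50 measured complement genes, by role. Black marks genes that passed an adjusted p of 0.05, grey those that did not, open circles genes with both group means below the receptor gene level, and asterisks the 8 members. The dotted line is the median change of all genes, 0.10.

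Of the 9 complement receptors, limma called 0, against 30.3% of all genes, with a median of -0.30 against 0.10. An unadjusted p under 0.05 was found for 2, against 43% of all genes. After quantile normalization 1 was lower (median -0.47), where 20.1% of all genes passed (median -0.02). Vsig4, the C3b receptor of resident macrophages, had the lowest difference of the 50 pathway genes (-0.69, SE 0.25, interval -1.23 to -0.15, limma adjusted p = 0.055). Its values were 7.03, 8.03, 6.96, 7.70 and 7.43 in the double knockout against 7.97, 8.24, 8.86, 7.71 and 7.81 in the ApoE knockout. Itgam and Itgb2, the chains of complement receptor 3, had -0.38 (SE 0.20) and -0.49 (SE 0.32). Without double knockout replicate 2, which was highest in each of these 3 genes in its group, Vsig4 (-0.84), Itgam (-0.57), Itgb2 (-0.75), C1qa (-0.48) and the terminal component C6 (-0.38) joined Cd59a as lower, with limma adjusted p between 0.0051 and 0.049. The pathway then had 9 higher and 6 lower of its 50 measured genes. In the same fit 31.7% of all 22180 genes passed, 5097 higher and 1925 lower. Among the fits with 1 array left out, Itgam, Itgb2 and C1qa passed only without double knockout replicate 2. Vsig4 (-0.79) and C6 (-0.39) also passed without ApoE knockout replicate 4, and in no other such fit.

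Terminal components were led by C7, the first of them to anchor in the membrane, at 11.79 ± 0.22 in the double knockout and 11.68 ± 0.15 in the ApoE knockout (SD, n = 5). Its difference of 0.11 did not pass (interval -0.14 to 0.35). Hc, which encodes C5, and C8a were higher, though both sat below the receptor gene level, where 5 of the 7 terminal genes lay in all. Cfp, which encodes properdin, the stabilizer of the alternative pathway enzyme, was highest in replicate 2 of each group (9.63 and 9.57 in double knockout and ApoE knockout). Its difference was -0.25 (interval -0.74 to 0.25). Fcna, which encodes ficolin A, differed by less than 0.01 in size (interval -0.36 to 0.35).

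Markers of other cells in the aorta were set beside these values. Smooth muscle markers, which check the tissue label, all lay above the receptor gene level (mean level 11.66 to 11.72 in the double knockout and 11.25 to 11.72 in the ApoE knockout), with 2 of 7 higher. Of 7 hepatocyte markers, Ttr, Serpina1a, Fgb and Cyp3a11 had both group means below the receptor gene level. Alb (5.66 in the double knockout and 5.93 in the ApoE knockout) and Apoa1 (6.09 and 5.90 in the same order) lay near it, and Ahsg lay above it (8.36 and 8.38). Their mean level was 5.63 to 5.79 in the double knockout and 5.51 to 5.72 in the ApoE knockout, with 3 higher and 1 lower. Of the other lists, fibroblast markers were higher in 2 of 8, mesothelial in 1 of 6, brown adipocyte in 1 of 5 and dendritic cell in 1 of 6, with 2 dendritic cell markers lower. Lower markers were found in 2 of 7 for endothelium, 4 of 6 for B cells, 3 of 5 for T cells, 5 of 7 for mast cells (1 higher), 2 of 2 for erythroid cells and 5 of 5 for platelets. Over all genes 22.8% were higher and 7.53% were lower. The part of these markers in the complement values was not tested.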

How the data were processed

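RNA from each of the 10 aortas went onto 1 Affymetrix Mouse Gene 2.0 ST array, per the labels' protocols. The deposited table gives 1 log2 value per probe set, the base being inferred from the range. Per the submitters' processing notes the authors used limma, in a role and version not stated. How background was corrected and arrays normalized is likewise not stated.

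Of 41345 probe sets, 23521 carry a single gene symbol, 1814 carry several and stayed unnamed, and 16010 have no name here. A gene with several probe sets was read from the one with the highest mean over all arrays, leaving 22180 genes, unfiltered and not normalized further. For 23328 named probe sets the gene identifier matched the GRCm38.p6 reference table.

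Every gene entered 1 limma fit (version 3.58.1, R 4.3.3, lmFit and eBayes) on group alone, with two-sided p-values and Benjamini-Hochberg adjustment over all genes. Each adjusted p printed for a gene is from that fit or a named alternative. The code was tested on simulated data. Likeness is the root mean square difference of group-centred values over the 10 arrays, among genes with a mean at or above 5.80 and an SD within groups of at least 0.5 times the gene's own.

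Named genes are the members, the called genes of the pathway list, the targeted genes and the 5 most alike genes. Other pathway genes were named after their values were seen. Members, lists and rules were chosen with earlier results of these data known. Alternatives covered filters, scaling, the probe set rule, the variance prior, weights per array, a replicate block, Welch's test, and each array left out in turn. Figures were drawn with matplotlib 3.10.9.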

Additional observations from a re-analysis of the deposited data

Results flagged for a closer look

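C1qa in double knockout replicate 2, at a log2 value of 9.78, lay far above the other 4 double knockout aortas (8.86 to 9.10). Its gap to the nearest of them was 0.74 of the range of the group, above the limit of 0.71 for 5 samples. Of 38 groups examined, 1 had such a value, where chance gives about 1 in 20.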

How the results depend on the processing

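Of the members' differences, 3 turned sign for C3ar1, which was -0.06 with arrays centred on the median of all probe sets, -0.01 without ApoE knockout replicate 5 and -0.05 without double knockout replicate 2. Serping1 was -0.04 under that centring and passed with a trended, robust prior (0.16, adjusted p = 0.039). That centring gave -0.52, -0.52 and -0.55 for C1qa, C1qb and C1qc. With 1 array left out, C1qa ranged from -0.48 to -0.25, C5ar1 from 0.17 to 0.34 and C3ar1 from -0.05 to 0.32. Members called were 0 as reported, 3 under that centring, 1 with the trended prior and 0 to 1 with 1 array left out. Pathway genes called were 11, against 4 with either filter on dim genes and 5 with Welch's test per gene. They were 7 (without ApoE knockout replicate 3) to 15 (without double knockout replicate 2) with 1 array left out. Welch's test called 4743 of all 22180 genes, and 0 members, receptors and white adipocyte markers. Cd59a (Welch adjusted p = 0.054), Susd4 (0.06) and C1ra (0.088) did not pass it, and Clu (0.042) did. Over all genes 6721 were called, 7310 with arrays centred on the median of all probe sets, 4461 after quantile normalization, 3494 at or above the receptor gene level and 3419 without the lowest 40% of genes. The share of calls that were higher was 75.1%, 44.4% after quantile normalization, 22.8% with arrays centred on the median of all probe sets and 60.9% centred over the genes tested, an alternative chosen after seeing the data. The causes were not tested, save that the filters test fewer genes. With the replicate number as a block, 6594 genes were called. Same-numbered arrays correlated at 0.33, 0.38, -0.17, 0.08 and 0.27 (replicates 1 to 5) in their deviations from group means. Double knockout replicates 1, 2 and 5 correlated best with the ApoE knockout array of their own number and 3 and 4 did not, so a shared number was not taken as pairing, though it may hold in part. The block changed no call of a member. With it 9 pathway genes were higher and 2 lower, and C1s2 did not pass (0.54, adjusted p = 0.096).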
